A study of Mus musculus with 56 samples.

Results

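The genes described here are 10 that mark the macrophage lineage or sit on the macrophage surface, out of 53379 genes in the count table, and they were taken by name: Adgre1, Csf1r, Cx3cr1, Mrc1, Cd163, Lyve1, Folr2, Timd4, Cd68 and Itgam. They were followed through 7 regions of the reproductive tract of male C57BL/6 mice, namely the testis, efferent ductules and vas deferens and, in the epididymis, the initial segment, caput, corpus and cauda. Mice of 3 months were compared with mice of 21 months, with 4 libraries of total RNA per region and age and 56 libraries in all. The mice carried no label for a treatment or an altered gene, and the labels set the groups apart by age and region only. The mice were bought from animal centres of different universities, and the sources used here do not say which age came from which. A difference of origin between the ages could therefore not be told apart from age. The regions were dissected from both sides of the same mice, so libraries of different regions share animals. The ages are different mice.

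Macrophages are resident phagocytes of nearly every tissue. Their survival depends on the receptor encoded by Csf1r and its ligands, and their identity on transcription factors such as PU.1, the product of Spi1. In the epididymis they lie around and within the epithelium of the duct and take up dying cells and sperm antigens, and in the testis they lie in the interstitium next to Leydig cells and against the seminiferous tubules. Adgre1 encodes F4/80, the surface protein by which mouse macrophages are most often recognised, and Cd68 encodes a protein of their lysosomes. Mrc1 (CD206), Cd163, Lyve1, Folr2 and Timd4 encode receptors that bind sugars, haemoglobin complexes, hyaluronan, folate and the phosphatidylserine of dead cells, and are used as marks of long-lived resident macrophages. Lyve1 is also a marker of lymphatic endothelium, and Itgam (CD11b) is shared with monocytes and neutrophils.

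Each library held between 11125279 and 20561967 counts. The second caput library of 3 months had 49.74% of its counts on Gm42418, an RNA gene that overlaps ribosomal RNA sequence. Levels below are CPM, the count divided by the TMM-scaled library size over all 56 libraries and expressed on the usual CPM scale, and fold changes come from fits with their own scaling. One library stood apart for the genes described here, the third cauda library of 3 months. It held 337 CPM of Cd68 against 9.31 to 10.8 CPM in the other 3 libraries of its group, 124 CPM of Adgre1 against 15.4 to 17.1, and 336 CPM of Csf1r against 76.7 to 86.4. Cauda results of 3 months are therefore also given without this library.

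All 10 genes gave counts in all 7 regions, and the macrophage label was met unevenly. Csf1r was counted at least 175 times in every library and Adgre1 at least 24 times, while Timd4 had between 1 and 37 counts and Itgam in the testis between 1 and 4. Exons of Itgam (chromosome 7, 128062640 to 128118491, GRCm38) overlap those of Gm49368 on the same strand, so reads in the shared part cannot be assigned to one gene. Exons of Csf1r, Folr2 and Cx3cr1 overlap genes on the opposite strand (Hmgxb3, Gm10602 and Gm33858). The strand setting of the counting is not given in the sources used here.

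Stretches of 250 bases before the transcription start were held by RefSeq (GRCm38.p6) for 7 of the 10 genes, in 8 windows. The letters GAGGAA, a purine-rich sequence that PU.1 binds, were searched on both strands, and the capitals mark each match, written TTCCTC where it lies on the opposite strand. Matches were found in 3 of the 8 windows (Mrc1 3, Itgam 2 and Cd68 1) and in 23.3% of the 32851 windows of all genes. All 3 windows with a match are printed, and that of Cd163 as one without. Cd68 lies on chromosome 11, minus strand, with its window at chr11:69666171-69666420. The bases that follow this window lie in no GENCODE M21 transcript, where the gene reaches only to 69666153. The window is therefore not directly before that start. Itgam is on the plus strand with its window at chr7:128062390-128062639, and Mrc1 on the plus strand of chromosome 2 with its window at chr2:14229164-14229413. Cd163 is on the plus strand of chromosome 6 with its window at chr6:124304401-124304650.
Cd68: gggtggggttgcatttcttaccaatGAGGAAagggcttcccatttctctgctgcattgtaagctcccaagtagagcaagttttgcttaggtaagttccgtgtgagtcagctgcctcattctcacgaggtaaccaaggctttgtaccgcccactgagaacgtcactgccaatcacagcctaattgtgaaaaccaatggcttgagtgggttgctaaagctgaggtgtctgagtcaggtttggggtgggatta
Itgam: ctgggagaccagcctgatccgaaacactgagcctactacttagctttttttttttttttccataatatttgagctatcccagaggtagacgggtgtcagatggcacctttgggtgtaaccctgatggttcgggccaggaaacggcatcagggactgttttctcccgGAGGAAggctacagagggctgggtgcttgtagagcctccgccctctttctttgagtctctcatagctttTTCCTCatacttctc
Mrc1: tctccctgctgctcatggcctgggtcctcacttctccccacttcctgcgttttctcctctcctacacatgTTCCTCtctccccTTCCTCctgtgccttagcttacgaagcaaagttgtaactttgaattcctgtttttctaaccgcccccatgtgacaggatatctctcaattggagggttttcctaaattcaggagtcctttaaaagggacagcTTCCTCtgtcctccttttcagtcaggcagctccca
Cd163: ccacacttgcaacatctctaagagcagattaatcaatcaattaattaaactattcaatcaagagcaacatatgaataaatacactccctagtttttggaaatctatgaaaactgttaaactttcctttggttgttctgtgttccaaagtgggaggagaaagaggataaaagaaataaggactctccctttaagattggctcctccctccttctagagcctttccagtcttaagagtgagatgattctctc
A match describes the letters only, and nothing was tested between matches and levels. Adgre1, Csf1r and Lyve1 had no window among the 8.

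The first question was how the genes differ between regions. At 3 months, 151 of the 210 combinations of a gene and a pair of regions differed (edgeR's quasi-likelihood F-test, Benjamini-Hochberg adjusted p under 0.05 over all genes tested), or 157 without the divergent library. At 21 months 136 of 210 differed. Over all genes tested, 49.6% of such combinations differed at 3 months (50.3% without that library) and 48.5% at 21 months. In bulk tissue, fewer macrophages and less RNA per macrophage cannot be told apart. The plot of levels by region and age shows each library.

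**Figure D1:**
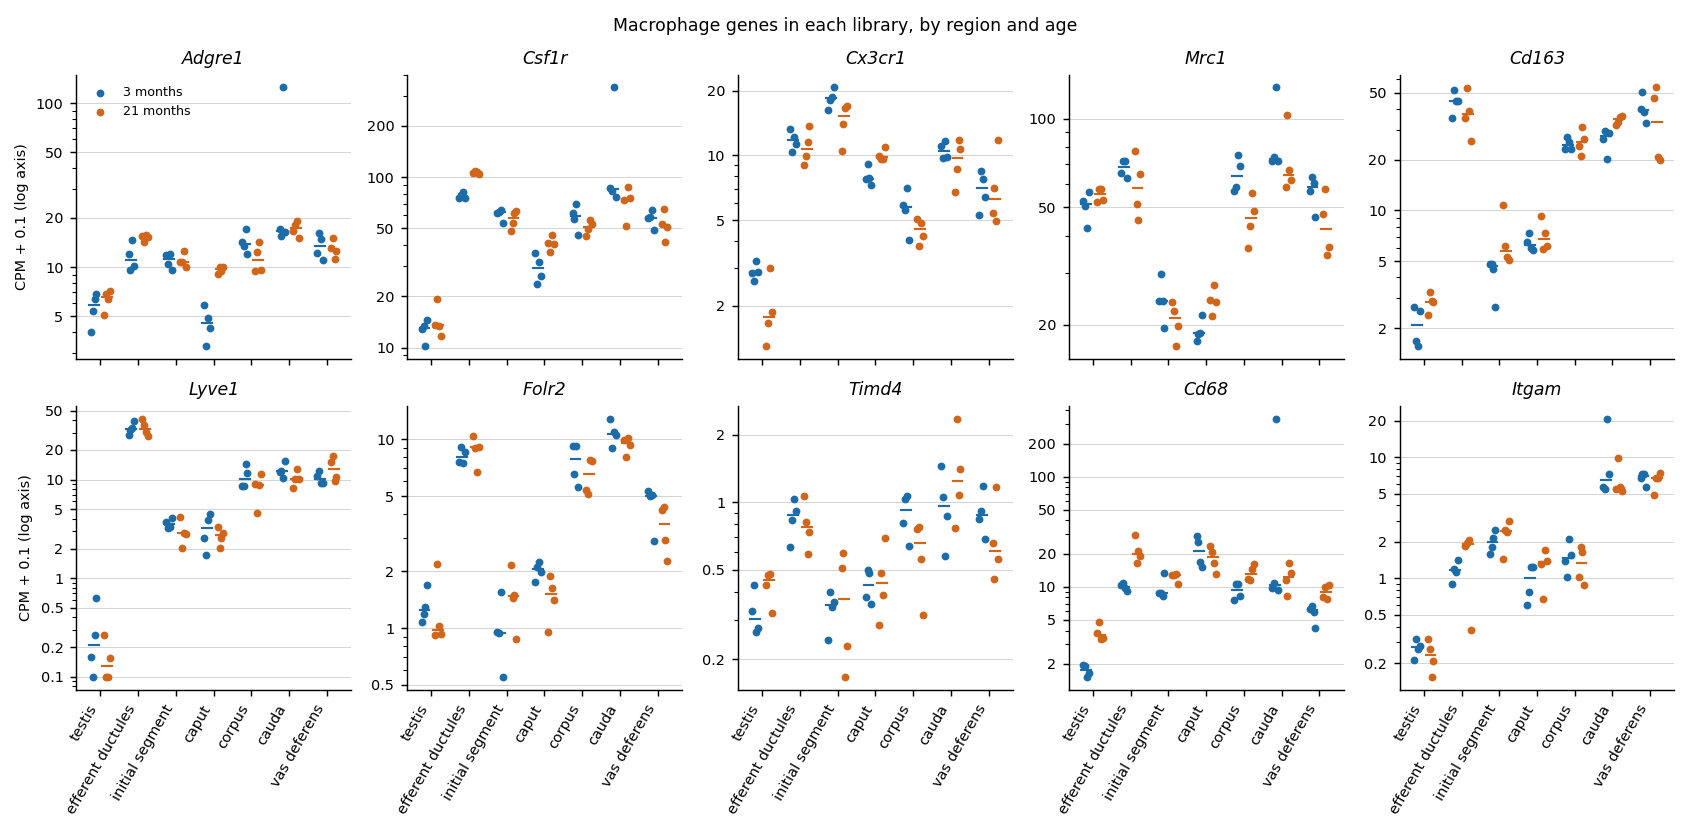
Level of each gene in each of the 56 libraries, as CPM plus 0.1 on a log axis, by region (x axis) and age (colour), with bars at the medians of 4 libraries. Lyve1 ran from 0 to 0.529 CPM in the testis and from 27.8 to 41.5 CPM in the efferent ductules, and the highest points of Cd68, Csf1r and Adgre1 are 1 cauda library of 3 months.

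Csf1r, the receptor on which macrophage survival depends, was lowest in the testis. Its libraries there gave 12.7, 13.2, 10.1 and 14.3 CPM at 3 months, against 35.6, 23.4, 31.8 and 26.4 CPM in the caput and 75.4, 78.2, 81.4 and 75.5 CPM in the efferent ductules. No testis library reached the lowest caput library, and no caput library reached the lowest library of the efferent ductules. The caput exceeded the testis by 1.40 on the log2 scale (SE 0.31, adjusted p = 0.000215). The initial segment, corpus and vas deferens had means of 60.4, 58.2 and 57.1 CPM and did not differ from one another as neighbours in this order. Without the divergent library the initial segment lay below the efferent ductules (log2 -0.32, adjusted p = 0.0180). The cauda had a mean of 82.1 ± 4.94 CPM (SD, n = 3) without the divergent library. It then differed from the efferent ductules by 0.03 on the log2 scale (adjusted p = 0.907), where the full set gave 0.92 (adjusted p = 0.0103). At 21 months the efferent ductules were highest, at 107 ± 1.56 CPM, and exceeded the cauda by 0.67 on the log2 scale (SE 0.16, adjusted p = 0.000601).

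Adgre1 followed Csf1r in part. At 3 months its libraries gave 5.76, 3.21, 4.82 and 4.15 CPM in the caput and 3.89, 5.27, 6.27 and 6.70 CPM in the testis. These groups overlap, and the caput and testis differed by less than the spread (adjusted p = 0.863). The initial segment exceeded the testis by 1.06 on the log2 scale (SE 0.45, adjusted p = 0.0359). The corpus, vas deferens, efferent ductules and initial segment had means between 10.8 and 14 CPM, and no neighbours among them differed in the full set. Without the divergent library the vas deferens exceeded the efferent ductules by 0.36 on the log2 scale (adjusted p = 0.0470). The cauda gave 16.2 ± 0.844 CPM (n = 3) without the divergent library and did not differ from the corpus (log2 difference 0.11, adjusted p = 0.720), although the full set gave 1.62 (adjusted p = 0.00496). At 21 months the caput exceeded the testis by 0.78 on the log2 scale (SE 0.16, adjusted p = 6.15e-05).

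Cx3cr1, the receptor for fractalkine, was highest in the initial segment, the most proximal part of the epididymis. Its 3-month libraries gave 16.1, 18.1, 18.6 and 20.6 CPM there and 13.1, 10.3, 12.1 and 11.2 CPM in the efferent ductules. The groups did not overlap, with a log2 difference of 0.69 (SE 0.16, adjusted p = 0.000479). The testis was lowest at 2.78 ± 0.25 CPM. At 21 months the initial segment still had the highest mean, 14.4 ± 3.01 CPM, but the difference from the efferent ductules missed the threshold (log2 0.51, SE 0.24, adjusted p = 0.0867).

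Itgam, the alpha chain of the complement receptor CR3, belonged to the distal end of the tract. The vas deferens gave 6.61, 7.13, 7.17 and 5.6 CPM at 3 months, the cauda gave 5.6, 5.40 and 7.14 CPM without the divergent library and 20.7 CPM in it, and the initial segment gave 1.5, 1.73, 2.05 and 2.39 CPM. The vas deferens exceeded the initial segment by 1.86 on the log2 scale (SE 0.34, adjusted p = 3.83e-05) at 3 months and by 1.39 (SE 0.33, adjusted p = 0.000952) at 21 months. The vas deferens and the cauda did not differ at either age (adjusted p = 0.279 and 0.942). At 3 months the log2 difference of the vas deferens over the cauda was -0.45, and 0.30 without the divergent library (adjusted p = 0.281), so that its sign rests on that library.

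The receptors used as marks of resident macrophages took other shapes. At 3 months Mrc1 was higher in the testis than in the caput and initial segment, and lower there than in the other 4 regions. Its libraries gave 52.4, 50.3, 42.6 and 56.1 CPM in the testis, against 17.5, 18.5, 18.6 and 21.4 CPM in the caput. Every testis library exceeded every caput library, and the log2 difference was 1.22 in favour of the testis (SE 0.16, adjusted p = 6.96e-08). For Csf1r the same pair of regions differed in the opposite direction. The efferent ductules exceeded the testis by 0.49 on the log2 scale (adjusted p = 0.00575), the corpus by 0.45 (adjusted p = 0.00970), the vas deferens by 0.34 (adjusted p = 0.0462), and the cauda by 0.82 (adjusted p = 2.22e-05) or by 0.53 without the divergent library (adjusted p = 0.000119). At 21 months the testis, at 55.1 ± 3.13 CPM, still exceeded the caput and initial segment and stood below the cauda, but did not differ from the efferent ductules, corpus or vas deferens (adjusted p = 0.180, 0.580 and 0.454). The initial segment of 3 months, at 24.2 ± 4.19 CPM of Mrc1, did not differ from the caput (adjusted p = 0.271).

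Lyve1, the hyaluronan receptor, gave 28.1, 31.4, 33.0 and 39.3 CPM in the efferent ductules at 3 months and 0.0573, 0, 0.164 and 0.529 CPM in the testis. The testis values rest on 0 to 9 counts per library. The cauda, next in order, stood below the efferent ductules at 3 months (log2 -1.43, SE 0.23, adjusted p = 5.35e-06), also without the divergent library (log2 -1.37, adjusted p = 4.73e-06). The efferent ductules exceeded the vas deferens by 1.35 at 21 months (SE 0.24, adjusted p = 2.64e-05). The lymphatic receptor gene Flt4 was also highest in the efferent ductules, at 58.5 ± 11.4 CPM at 3 months against 15.9 ± 1.39 CPM in the vas deferens. Prox1, the transcription factor of lymphatic vessels, gave 19.6 ± 5.28 CPM in the efferent ductules and 14.9 ± 1.91 CPM in the testis, where Lyve1 was near 0. How much of the Lyve1 signal came from lymphatic vessels was not tested.

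Cd163, the haemoglobin scavenger receptor, formed steps along the tract at 3 months. The efferent ductules and vas deferens stood at 44.1 ± 6.88 and 40.5 ± 7.32 CPM and did not differ, and the vas deferens exceeded the cauda by 0.77 on the log2 scale (SE 0.16, adjusted p = 0.000253), or by 0.68 without the divergent library (adjusted p = 0.000836). The corpus exceeded the caput by 1.89 (SE 0.18, adjusted p = 4.24e-10), the caput exceeded the initial segment by 0.70 (SE 0.19, adjusted p = 0.00546), and the initial segment exceeded the testis by 1.12 (SE 0.21, adjusted p = 1.90e-05). At 21 months the efferent ductules, vas deferens, cauda and corpus were no longer separated between neighbours. Nor was the caput separated from the initial segment (log2 -0.025). The corpus still exceeded the caput by 1.83 (SE 0.28, adjusted p = 3.50e-06), and the initial segment the testis by 1.55 (SE 0.30, adjusted p = 3.96e-05). The vas deferens libraries of that age gave 46.4, 53.7, 20.8 and 19.9 CPM, so that the group itself fell into a high and a low pair.

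Folr2, a folate receptor, had its highest means in the cauda, efferent ductules and corpus, at 10.7 ± 1.61, 8.04 ± 0.79 and 7.55 ± 1.86 CPM at 3 months, and neighbours among them did not differ. Without the divergent library the cauda mean was 10.7 ± 1.97 CPM (n = 3). Folr2 was lowest in the initial segment, at 0.857, 0.837, 1.44 and 0.452 CPM. The initial segment thus held the highest Cx3cr1 and the lowest Folr2 of the 7 regions at 3 months, although the testis, next above for Folr2, did not differ from it (adjusted p = 0.319). Timd4 stayed between 0.0669 and 2.26 CPM in all 56 libraries. At 3 months its mean was 0.75 CPM in the efferent ductules and 0.33 CPM in the caput, a log2 difference of 1.09 (SE 0.36, adjusted p = 0.0136), and at 21 months no neighbours differed.

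Cd68, the lysosomal protein, was high in the caput at 3 months, where Csf1r was the lowest of the ducts. Its libraries gave 28.9, 25.2, 16.8 and 15.0 CPM in the caput and 10.2, 10.7, 9.69 and 9.12 CPM in the efferent ductules. The groups did not overlap, yet with the divergent cauda library in the fit the log2 difference of 1.24 had an SE of 0.70 and missed the threshold (adjusted p = 0.164). Without that library the difference was 1.24 (adjusted p = 1.86e-06). The cauda then stood below the caput by 1.30 on the log2 scale (adjusted p = 8.13e-06), where the full set placed it above by 2.02 (adjusted p = 0.0208).

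Corrected for exon length, the order of the genes differed between regions. In the efferent ductules at 3 months the means were 13.5 CPM per kb for Csf1r, 11.3 for Lyve1, 10.7 for Mrc1, 8.08 for Cd163, 7.90 for Cd68, 5.20 for Folr2, 3.54 for Adgre1, 2.59 for Cx3cr1, 0.35 for Timd4 and 0.21 for Itgam. In the testis they were 7.90 CPM per kb for Mrc1, 2.18 for Csf1r, 1.71 for Adgre1, 1.31 for Cd68, 0.78 for Folr2, 0.62 for Cx3cr1, 0.37 for Cd163, 0.10 for Timd4, 0.06 for Lyve1 and 0.03 for Itgam. In the caput Cd68 led with 17.1 CPM per kb, ahead of Csf1r with 5.07 and Mrc1 with 2.98. Mrc1 was first in the testis, Csf1r in the efferent ductules and Cd68 in the caput.

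Dividing each gene by Csf1r within a library removes the scaling and shows the mix of markers more directly. The ratio carries the lengths of both genes and is compared between regions only. For Mrc1 it ran from 3.81 to 4.19 in the 4 testis libraries of 3 months and from 3.03 to 4.56 at 21 months, while the highest value elsewhere was 1.98, in 1 cauda library of 21 months. For Cd68 it ran from 0.528 to 1.07 in the caput at 3 months, while the efferent ductules ran from 0.119 to 0.137. For Itgam at 3 months it was highest in the vas deferens, from 0.112 to 0.123. At 21 months the vas deferens ran from 0.0904 to 0.159, and 1 cauda library stood higher, at 0.190.

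**Figure D2:**
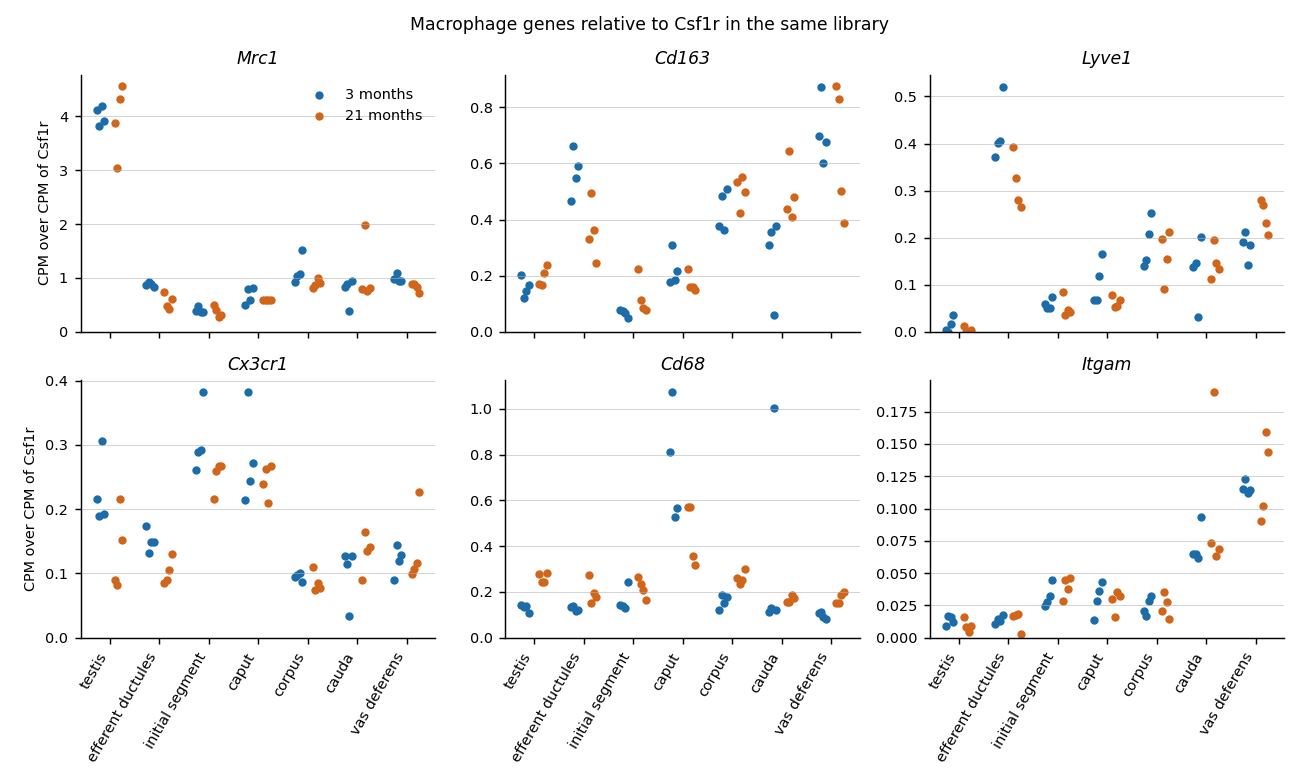
Ratio of CPM of 6 genes to CPM of Csf1r in the same library (y axis, linear, from 0), by region (x axis) and age (colour), with 1 point per library. Mrc1 stands at 3.03 or higher in all 8 testis libraries, Cd68 is high in the caput of 3 months and in 1 cauda library, and Itgam is highest in the cauda and vas deferens.

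The second question was which genes differed between 3 and 21 months within a region. In separate fits of each region, an age difference that passed the test was a rise, and it concerned Cd68, Csf1r or Adgre1. In the testis 1 of the 10 genes rose and 0 fell, where 0.353% of all genes tested rose and 0.21% fell. Among the efferent ductule libraries 2 rose and 0 fell, against 4% and 2.98% of all genes. The caput had 2 rises and 0 falls, against 3.09% and 5.05%, and the vas deferens 1 rise and 0 falls, against 11.4% and 8.47%. No member passed in the initial segment (3.35% of all genes rose and 3.01% fell), the corpus (1.5% and 1.47%) or the cauda (0.07% and 0.0583%). At an unadjusted p under 0.05, with no condition on fold, 2 genes passed in the initial segment (19.1% of all genes), 2 in the corpus (17.3%) and 3 in the cauda (10.5%). These were rises of Cd163 and Cd68 in the initial segment, and a fall of Mrc1 and a rise of Cd68 in the corpus. In the cauda Csf1r and Cd68 fell and Cd163 rose. The same rule gave 2 in the vas deferens (34.2%), 3 in the testis (10.4%) and 3 in each of the caput (25%) and efferent ductules (25.1%). With an unadjusted p under 0.05 and a fold of at least 1.5, in either direction, 2 members passed in the testis (2.71% of all genes) and 2 in the cauda (8.3%). In the testis Cd68 rose and Cx3cr1 fell (log2 -0.59, SE 0.22), and in the cauda Csf1r and Cd68 fell. Both cauda falls rest on the divergent library, as given below. By that rule 1 member passed in the vas deferens (17.8%), 1 in the caput (13.2%), 1 in the initial segment (11.5%), 1 in the efferent ductules (12.8%) and 0 in the corpus (6.84%). The median log2 fold change of the 10 genes lay between -0.29 (corpus) and 0.24 (initial segment), and that of all genes between -0.04 and 0.02.

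**Figure D3:**
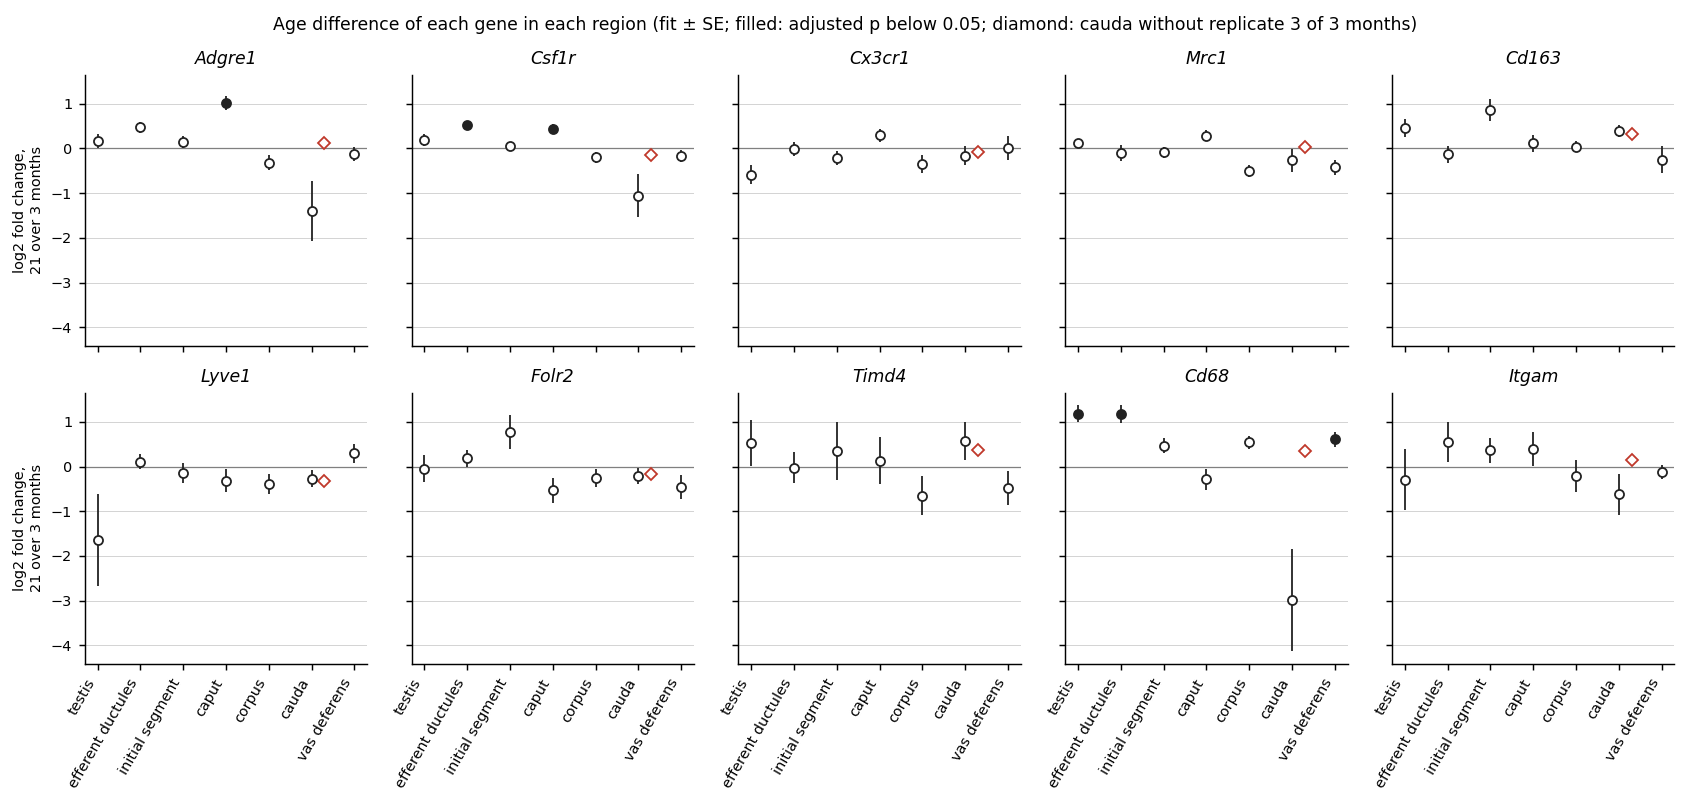
Log2 fold change of each gene at 21 over 3 months (y axis) in each region (x axis), from the regional edgeR fits with 4 libraries per age, with bars of 1 SE. Filled points pass an adjusted p of 0.05, and diamonds show the cauda without its divergent library, where Cd68 moves from -2.98 to 0.35 and Adgre1 from -1.40 to 0.11.

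Cd68 (ENSMUSG00000018774, chromosome 11, 69664213 to 69666153, minus strand, GRCm38) rose in 3 regions. In the testis its libraries gave 1.83, 1.79, 1.42 and 1.53 CPM at 3 months and 3.71, 4.67, 3.27 and 3.31 CPM at 21 months, a log2 fold change of 1.18 (SE 0.18, adjusted p = 0.00168). In the efferent ductules they gave 10.2, 10.7, 9.69 and 9.12 CPM and then 29.1, 16.2, 20.9 and 18.8 CPM (log2 fold change 1.18, SE 0.20, adjusted p = 0.0110). In both regions every old library exceeded every young one. The efferent ductule libraries also separated by age in the share of counts on Gm42418, which was 1.27% to 3.30% at 3 months and 4.93% to 22.2% at 21 months, and the old library with the most Cd68 had the highest share. With Gm42418 left out of the counts the log2 fold change of Cd68 there was 1.18 (adjusted p = 0.0111), and the part of library quality in it was not tested.

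In the vas deferens Cd68 gave 6.19, 6.57, 5.84 and 4.09 CPM and then 7.98, 9.89, 7.71 and 10.3 CPM, again without overlap (log2 fold change 0.61, SE 0.18, adjusted p = 0.0343). This call was lost in 5 of the 8 fits that left out 1 library (replicate 1, 3 or 4 of 3 months, or replicate 2 or 4 of 21 months), with log2 fold changes of 0.48 to 0.70. The corpus showed 7.41, 10.4, 10.5 and 8.12 CPM at 3 months and 11.7, 11.5, 14.3 and 16.0 CPM at 21 months, which do not overlap but missed the threshold (log2 0.54, SE 0.15, adjusted p = 0.0713). In the caput, where Cd68 was high at 3 months, the log2 fold change was -0.28 (SE 0.23, adjusted p = 0.502).

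Csf1r rose in the efferent ductules from 75.4, 78.2, 81.4 and 75.5 CPM to 106, 108, 108 and 105 CPM (log2 fold change 0.53, SE 0.09, adjusted p = 0.0101). The groups did not overlap, and they are the libraries whose Gm42418 share differed with age. With that gene left out of the counts the log2 fold change was 0.53 (adjusted p = 0.0100). Scaled by library size only, which moved the median of all genes in this region to -0.38, the log2 fold change was 0.19 and missed the threshold (adjusted p = 0.247). In the caput Csf1r went from 35.6, 23.4, 31.8 and 26.4 CPM to 41.1, 36.3, 45.6 and 40.6 CPM (log2 fold change 0.43, SE 0.11, adjusted p = 0.0376). That call held in 1 of the 8 fits that left out 1 library, with values from 0.37 to 0.49, and was lost in each of the others.

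Adgre1 (chromosome 17, 57358691 to 57483527, plus strand, GRCm38) rose in the caput, from 5.76, 3.21, 4.82 and 4.15 CPM to 8.99, 9.94, 9.41 and 9.93 CPM (log2 fold change 1.02, SE 0.16, adjusted p = 0.00335). The old libraries lay within 1 CPM of each other and all above the young ones, and the call held in all 8 single omissions. It missed the threshold in the fit of all 56 libraries together (log2 1.06, adjusted p = 0.0580), in which none of the 6 calls held and 3 falls in the cauda passed. Without the divergent library that fit gave log2 1.06 (adjusted p = 2.58e-05), and all 6 calls held. Of all genes 6.94% then passed in the caput, 9.25% in the efferent ductules, 12.3% in the vas deferens and 0.0515% in the testis. In the efferent ductules Adgre1 gave 11.9, 9.49, 14.5 and 9.98 CPM and then 15.3, 14.1, 15.5 and 15.1 CPM, and missed the threshold narrowly (log2 0.47, SE 0.13, adjusted p = 0.0508).

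None of the 5 resident receptors passed the test in any region by these fits, although Mrc1 in the corpus (a fall) and Cd163 in the initial segment (a rise) passed with DESeq2, with no filter on low counts and with the replicate number as a block. The nearest were Mrc1 in the corpus, with 56.7, 58.4, 75.1 and 69.2 CPM at 3 months and 36.2, 43.2, 56 and 48.6 CPM at 21 months (log2 -0.50, SE 0.14, adjusted p = 0.0583), and Cd163 in the initial segment, with 4.71, 4.73, 4.39 and 2.58 CPM and then 10.7, 6.07, 5.21 and 4.96 CPM (log2 0.86, SE 0.25, adjusted p = 0.0590). In the corpus all old libraries lay below all young ones, and in the initial segment above them. For Lyve1 the log2 values in the 6 regions outside the testis lay between -0.39 and 0.29. Cx3cr1 and Itgam passed in no region by adjusted p either, and their lowest was that of Cx3cr1 in the caput (log2 0.29, SE 0.15, adjusted p = 0.263).

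Whether the age difference itself varied between regions was tested in one fit of all 56 libraries. It did for 3 of the 10 genes, Adgre1 (adjusted p = 0.00635), Csf1r (adjusted p = 0.00871) and Cd68 (adjusted p = 0.00100), where 20.2% of all genes passed. Mrc1 was next (adjusted p = 0.0867). When all libraries of 1 replicate number were left out, the call was lost for Csf1r without number 2 or 3 (adjusted p = 0.0552 and 0.0537) and for Adgre1 without number 4 (adjusted p = 0.0531), and it held for Cd68 in all 4 such fits (adjusted p from 0.00917 to 0.0223), where 7.76% to 12.2% of all genes passed. Set against the mean of the other 6 regions, Adgre1 rose more in the caput, by 1.26 on the log2 scale (SE 0.38, adjusted p = 0.0293), where 6.95% of all genes passed. In the cauda, where 2.3% of all genes passed, the log2 differences of Adgre1, Csf1r and Cd68 were -1.56, -1.14 and -3.51 (adjusted p = 0.00767, 0.00771 and 0.000445). No member passed in the testis (0.0649% of all genes), efferent ductules (3.76%), initial segment (1.9%), corpus (0.124%) or vas deferens (7.7%).

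The cauda differences rested on the divergent library. Without it they were -0.13, -0.31 and -0.29, with adjusted p of 1, 0.438 and 0.744, where 0.387% of all genes passed. The difference in the caput remained for Adgre1 (1.02, SE 0.18, adjusted p = 0.000131), and Cd68 in the caput was now below the other regions, with a difference of -0.91 (SE 0.21, adjusted p = 0.00354), where 7.33% of all genes passed. Over the 7 regions together, Adgre1 (adjusted p = 0.000405), Csf1r (0.0111), Cd68 (0.00288) and Mrc1 (0.0415) varied without that library, as did 20.2% of all genes.

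The divergent cauda library was high for some macrophage genes and not for others. It lay above all other 7 cauda libraries and at least 2 times above the median of its group for 4 of the 10 genes, and for 7.81% of all genes tested in the cauda. By the mirrored limits it lay below them for 0 of the 10 and for 5.35% of all genes. The ratio to that median was 35.3 for Cd68, 7.71 for Adgre1, 4.04 for Csf1r and 3.70 for Itgam. Mrc1 had 128 CPM against 71.7 to 73.9 CPM in the rest of the group. The other receptors were not high: Cx3cr1 had 11.6 CPM against 9.59 to 11, Folr2 10.8 against 8.83 to 12.7, Lyve1 10.3 against 11.9 to 15.5, Cd163 20.1 against 26.6 to 29.7 and Timd4 0.477 against 0.765 to 1.35. Lyve1, Cd163 and Timd4 were below the lowest of the other 3 libraries.

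Other genes of phagocytes were high in the same library. All 14 genes of the list of phagocyte and Fc receptor genes passed the same limits, with a median ratio of 10.5. Gpnmb, a glycoprotein of lipid-laden macrophages, had 4405 CPM against 474 to 540, the lysozyme gene Lyz2 2215 against 126 to 146, and the lysosomal protease gene Ctss 1439 against 36.9 to 42.9. Of the 6 macrophage transcription factors 5 passed, among them Zeb2 at 288 CPM against 81.8 to 84.7. Spi1, named here because its motif was searched and after its values were seen, had 35.4 CPM against 4.13 to 5.17. Of the 15 other resident macrophage genes 6 passed, with 330 CPM of C1qb against 57.7 to 65.5, while Gas6 had 132 CPM against 110 to 117. Of the 7 ligands and partners 2 passed, and of the 6 monocyte genes 2.

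**Figure D4:**
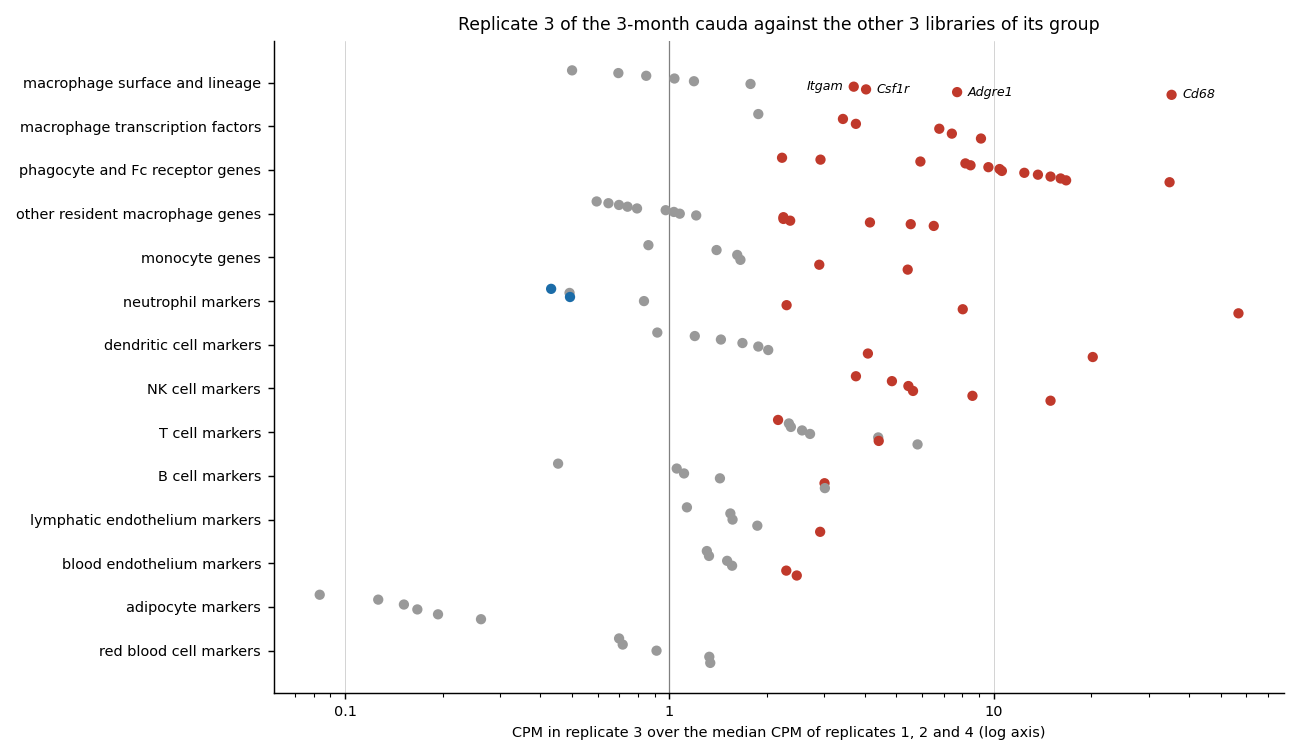
CPM in the third cauda library of 3 months over the median of the other 3 libraries of its group (x axis, log), with 1 point per gene, by list. Red points lie above all other 7 cauda libraries and at least 2 times above that median, blue points below them by the same measure, and grey points neither. Cd68 stands at 35.3 and all 14 phagocyte genes are red, while Cx3cr1, Folr2, Lyve1, Cd163 and Timd4 lie at 1.19 or lower.

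Markers of other cells moved in that library too. All 6 NK cell markers passed the limits, each at 2.55 CPM or less, as did 2 of 8 T cell, 2 of 8 dendritic cell, 2 of 6 blood endothelium, 1 of 6 B cell, 1 of 5 lymphatic and 2 of 3 pan-leukocyte genes and no red blood cell marker. Of 7 neutrophil markers 3 were higher and 2 lower, with Csf3r at 26.7 CPM against 2.54 to 3.64, Mmp8 at 3.61 against 0.0616 to 0.0638 and S100a8 at 4.99 against 8.99 to 10.8. Ltf, the other lower gene, had 824 CPM against 1816 to 2075, far above the rest of this list. Which cells gave its counts was not tested. Among the dendritic cell markers Itgax, which macrophages can also express and which was chosen after its values were seen, had 75.9 CPM against 2.86 to 4.00. The 6 adipocyte markers had a median ratio of 0.159, with 0 past the limits, and 1 of 10 germ cell markers was lower. Their part in the levels of Cd68, Adgre1, Csf1r and Itgam was not tested.

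Left in the age comparison, the divergent library gave log2 fold changes in the cauda of -2.98 for Cd68 (SE 1.15, adjusted p = 0.400), -1.40 for Adgre1 (SE 0.66, adjusted p = 0.495) and -1.06 for Csf1r (SE 0.48, adjusted p = 0.474). Without it they were 0.35 (SE 0.24), 0.11 (SE 0.15) and -0.15 (SE 0.18), with adjusted p of 0.698, 0.828 and 0.804. Itgam went from -0.62 to 0.14 and Mrc1 from -0.27 to 0.03. Cd163 kept its sign, at 0.39 with the library and 0.31 without (adjusted p = 0.345 and 0.466). No member passed the test either way, and 0.346% of all genes did without the library. The cauda of 21 months also held a high library for Mrc1 and Itgam, the second, with 103 CPM of Mrc1 against 58.5 to 66.7 and 9.85 CPM of Itgam against 5.16 to 5.54.

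Related genes were counted from lists that were written with earlier results known. Over all genes tested, 11.4% rose and 8.47% fell in the vas deferens, and 4% and 2.98% in the efferent ductules. These shares were 3.09% and 5.05% in the caput, 3.35% and 3.01% in the initial segment and 1.5% and 1.47% in the corpus. In the testis they were 0.353% and 0.21%, and in the cauda 0.07% and 0.0583%. They stand beside every list count below. Among 14 phagocyte and Fc receptor genes, 7 rose in the vas deferens, 7 in the efferent ductules, 6 in the caput, 5 in the initial segment and 1 in the testis, with 0 in the corpus and cauda and none falling. The list's median log2 fold change in the efferent ductules was 0.85, beside 0.14 for the 10 genes above and -0.04 for all genes. Lyz2 rose in the caput (log2 0.996, adjusted p = 0.000384), the efferent ductules (0.95, adjusted p = 0.0272) and the initial segment (0.52, adjusted p = 0.00243). Gpnmb rose in the testis (2.47, adjusted p = 0.0336), the efferent ductules (2.41, adjusted p = 0.00317), the vas deferens (1.72, adjusted p = 0.00468) and the caput (0.61, adjusted p = 0.0263).

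Among 15 other resident macrophage genes, 7 rose and 1 fell in the efferent ductules, and 6 rose and 1 fell in the initial segment. The complement gene C1qb, which macrophages express, rose by 0.92 on the log2 scale in the efferent ductules (adjusted p = 0.0174) and by 0.61 in the initial segment (adjusted p = 0.0102), where none of the 10 surface and lineage genes passed. Gas6, which bridges dead cells to Mertk, rose in the efferent ductules (0.41, adjusted p = 0.0442). Mertk itself, a receptor for dead cells, fell by 0.45 on the log2 scale there (adjusted p = 0.0196). Stab1 passed in no region. Elsewhere this list had 3 rises in the vas deferens, 2 in each of the corpus and caput, 1 in the testis and 0 in the cauda.

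Among 6 macrophage transcription factors, 3 rose in the vas deferens, 2 in the initial segment and 1 in the efferent ductules, and Zeb2 fell in the corpus (log2 -0.58, adjusted p = 0.0136). Irf8 rose in the vas deferens (1.56, adjusted p = 0.00594) and the initial segment (0.61, adjusted p = 0.00582). Among 7 ligands and partners of the 10 genes, 1 rose in each of the efferent ductules, initial segment and corpus and 3 in the vas deferens. Cx3cl1, the ligand of Cx3cr1, rose in the vas deferens (0.56, adjusted p = 0.00434) and corpus (0.54, adjusted p = 0.0260). Itgb2, the beta chain that pairs with Itgam and a gene chosen after its values were seen, rose in the efferent ductules (1.22, adjusted p = 0.0217), initial segment (0.71, adjusted p = 0.0186) and vas deferens (1.02, adjusted p = 0.00553). Csf1 and Il34, the ligands of Csf1r, and Hp, whose product carries haemoglobin to Cd163, passed in no region. Of 6 monocyte genes, 1 rose in each of the vas deferens, caput, efferent ductules and initial segment, 1 fell in the corpus and 2 fell in the vas deferens. Over all genes 11.4%, 3.09%, 4% and 3.35% rose in those 4 regions in that order, 1.47% fell in the corpus and 8.47% in the vas deferens.

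Markers of lymphocytes rose with age in some regions. The T cell list rose for 8 of 8 genes in the vas deferens, 6 in the initial segment, 5 in the efferent ductules and 4 in the caput, with a summed level of 5.47 to 6.21 CPM in the efferent ductules at 3 months and 13.9 to 16.1 CPM at 21 months. In the caput the sum went from 3.33 to 5.21 CPM to 9.61 to 14.8 CPM, and in the vas deferens from 5.82 to 9.70 CPM to 20.7 to 62.4 CPM. No T cell gene passed in the testis (0 of 7), corpus or cauda (0 of 8 in each). All 6 B cell markers rose in the vas deferens and 1 in each of the efferent ductules and corpus, and 0 passed in the other 4 regions. Pan-leukocyte genes rose for 3 of 3 in the vas deferens, 2 in each of the caput and initial segment and 1 in the efferent ductules, and 1 fell in the corpus. The gene that fell was Cd52. In the cauda of 3 months, without the divergent library, it gave 5061 to 5823 CPM, against 27.6 to 30.5 for Ptprc and 11.2 to 13.6 for Coro1a. Which cells gave the Cd52 counts was not tested.

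Neutrophil markers rose for 1 of 4 tested in the efferent ductules, 1 of 2 in the initial segment and 3 of 3 in the vas deferens. Dendritic cell markers rose for 2 of 8 in the efferent ductules and 1 in each of the caput and vas deferens, and NK cell markers for 1 in each of these 3 regions, with 1 falling in the vas deferens. Over all genes 4%, 3.09% and 11.4% rose in these regions in that order, and 8.47% fell in the vas deferens. Single calls in the vas deferens thus lie near the share of all genes. Red blood cell markers rose for 4 of 6 in the efferent ductules, 4 in the corpus and 1 in the caput. Adipocyte markers fell for 2 of 6 in the efferent ductules, 2 in the corpus and 1 in each of the initial segment and caput. Germ cell markers fell for 9 of 10 in the initial segment, 2 in the caput and 1 in the testis, and 1 rose in the vas deferens. Lymphatic markers rose for 1 of 5 in the corpus, and blood endothelium markers fell for 1 of 6 in the initial segment, 1 in the caput and 2 in the vas deferens, with 1 rising in the caput. The part of all these cells in the rises of Cd68, Csf1r and Adgre1 was not tested.

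Finally, the genes whose pattern over the 14 group means of log2(CPM + 1) was most like each member were listed, as a description over means that share mice. For Csf1r these were Tifab (Pearson r = 0.985), Ang (0.971) and Vsir (0.969), and for Adgre1 Tlr8 (0.957), Ms4a6d (0.947) and Lyz2 (0.947). For Cx3cr1 they were Sall2 (0.954), Cd9 (0.953) and Ctsa (0.953). Mrc1 was closest to Slc6a6 (0.939), Pcyt1b (0.936) and Cd302 (0.935), Cd163 to Pllp (0.978), Irs1 (0.972) and Lrrn4cl (0.969), and Lyve1 to Mpp1 (0.990), Arhgef19 (0.986) and Mmp23 (0.979).

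For Folr2 the nearest were Vasn (0.966), F13a1 (0.956) and Mchr1 (0.956), and for Timd4 Dse (0.933), F13a1 (0.929) and Lyz1 (0.919). For Itgam they were Hoxa10 (0.979), Npy1r (0.972) and Sh3bgrl (0.962). For Cd68 they were Rnaset2b (0.925), Rnaset2a (0.921) and Ftl1 (0.918), of which the first pair are near-identical copies whose reads may have been split. Without the divergent library the first-named gene stayed among the nearest 3 for every member. Among the members, Cd163 and Lyve1 were most alike (r = 0.932) and Cx3cr1 and Mrc1 least (r = -0.31). Without the divergent library Mrc1 and Cd68 were least alike (r = -0.35, against -0.18 with it).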

How the data were processed

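The deposited table held raw counts of reads per Ensembl gene for the 56 libraries. The authors made it from TruSeq Stranded Total RNA libraries with cutadapt, HISAT2 and HTSeq on mm10 (GRCm38), whose versions are not given in the sources used here. Groups followed the sample labels. Region comparisons treated libraries of the same mice as independent, and the replicate numbers are not stated to mark a mouse. Every correlation of same-numbered libraries was above 0.1 in 0 of 7 regions between ages and, between regions, in 1 of 21 pairs of regions at 3 months (corpus and cauda) and 0 of 21 at 21 months. That limit was not set against libraries of unlike number, so it cannot show that the numbers mark different mice. No pairing was used in the main fits.

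Genes with at least 10 counts in total were tested by edgeR 4.0.16 (R 4.3.3; TMM, quasi-likelihood F-test) with Benjamini-Hochberg adjustment over all genes tested: per region for age, over the 28 libraries of an age for regions, and over all 56 for the interaction. The fits were tested on simulated data. DESeq2 1.42.0, other scalings, other filters, a replicate block and omission of libraries were the alternatives. CPM per kb used the union of exons (GENCODE M21). No libraries of a group agreed within sampling noise (lowest chi-square per gene 3.03).

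The 10 genes and the gene lists were chosen with earlier results of these data known. Of each list, at most 4 genes by mean CPM were named, apart from those said to be chosen later and the markers of other cells. Likeness was ranked over 15620 protein-coding genes of at least 1 CPM. No other columns of the table were used.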

Additional observations from a re-analysis of the deposited data

Results flagged for a closer look

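In 12 of the 140 groups of 4 libraries (10 genes, 7 regions and 2 ages), 1 library lay far from the other 3 by Dixon's test at the 95% level, which chance gives in about 1 of 20 groups. The third cauda library of 3 months accounted for 5 of them, with 124 CPM of Adgre1, 336 CPM of Csf1r, 128 CPM of Mrc1, 337 CPM of Cd68 and 20.7 CPM of Itgam. In the initial segment the fourth library of 3 months had 2.58 CPM of Cd163 and 13.1 CPM of Cd68, and the fourth of 21 months had 10.5 CPM of Cd68. For Folr2, the fourth vas deferens library of 3 months had 2.77 CPM and the second testis library of 21 months 2.10 CPM. For Itgam, the fourth library of the efferent ductules at 21 months had 0.273 CPM and the second cauda library of 21 months 9.85 CPM.

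The age difference varied between the 7 regions for Adgre1 (adjusted p = 0.00635), Csf1r (adjusted p = 0.00871) and Cd68 (adjusted p = 0.00100) in edgeR's joint test of the interaction terms. Against the mean of the other 6 regions the log2 difference was 1.26 for Adgre1 in the caput, and in the cauda it was -1.56 for Adgre1, -1.14 for Csf1r and -3.51 for Cd68. Without the third cauda library of 3 months the values in the cauda were -0.13, -0.31 and -0.29.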

How the results depend on the processing

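The number of genes called with age moved in several settings, and the cause was not tested. By an unadjusted p under 0.05 with a fold of at least 1.5, it was 2 in the cauda (falls of Csf1r and Cd68), 2 in the testis (a rise of Cd68 and a fall of Cx3cr1) and 1 in each of the caput, efferent ductules and initial segment. With all 56 libraries in one fit it was 0 in the vas deferens, caput, testis and efferent ductules (11.2%, 6.26%, 0.027% and 8.21% of all genes passed) but 3 in the cauda (3.48% of all genes). Those 3 were falls (log2 -1.35 for Adgre1, -1.02 for Csf1r and -2.91 for Cd68) and rest on the third library of 3 months. Without it, a fit chosen after seeing the data, they were 0.0718, -0.19 and 0.31, 0 members passed in the cauda (1.42% of all genes) and the 6 calls of the regional fits held. Of all genes 12.3% then passed in the vas deferens, 6.94% in the caput, 0.0515% in the testis and 9.25% in the efferent ductules. By library size only it was 1 in each of the caput and efferent ductules (3.51% and 20.4% of all genes) and 5 for the interaction (16.9%). That scaling moved the all-gene median (log2) to 0.19 in the caput, -0.17 in the corpus and -0.38 in the efferent ductules. Over all genes it called 405 up and 4883 down in the efferent ductules (1039 and 774 by TMM), 154 and 350 in the corpus (373 and 365) and 99 and 90 in the testis (106 and 63). DESeq2 and the fit with no filter each gave 1 in the initial segment (Cd163; 6.86% and 6.03% of all genes) and 2 in the corpus (Cd68 and Mrc1; 4.87% and 4.82%). The replicate block gave 1 in the initial segment (Cd163; 4.9% of all genes), 2 in the corpus (Cd68 and Mrc1; 4.93%), 1 in the vas deferens (Mrc1 in place of Cd68; 15.4%) and 3 for the interaction (18.3%), although mice of the 2 ages differ, so that a number shared between ages marks no common mouse. Leaving out 1 library gave 1 to 2 in the caput, 0 to 1 in the corpus, initial segment and vas deferens, 2 to 3 in the efferent ductules, and 1 in the testis and 0 in the cauda throughout. Over all genes those fits called 2.47% to 20.9% in the caput, 1.61% to 4.62% in the corpus, 4.04% to 6.94% in the initial segment, 12.3% to 21.5% in the vas deferens and 0% to 0.346% in the cauda. For the efferent ductules this was 1.24% to 8.4%, and for the testis 0.2% to 0.649%. Over the single omissions the log2 fold change in the cauda ran from -1.69 to 0.11 for Adgre1 and from -3.37 to 0.35 for Cd68, positive only without the third library of 3 months. Region combinations called ran from 135 to 157 at 3 months and from 121 to 146 at 21 months over all alternatives. The share of all genes is given only for the main fits (49.6% and 48.5%) and without the third cauda library at 3 months (50.3%). These ranges can therefore not be set against how all genes moved. DESeq2 gave no adjusted p for 7 members in the testis (Cd68 among them), for Adgre1 and Cd68 in the cauda, for Timd4 in the corpus and for Adgre1 in the interaction. Leaving that cauda library out of the likeness and of the other gene lists was chosen after seeing the data. Depth limits Timd4, and Lyve1 and Itgam in the testis.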
